A study of Mus musculus with 2 samples.

Results

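Antioxidant enzymes and glutathione transferases were followed in implantation sites of mice with and without cystathionine beta-synthase (Cbs), the enzyme that joins homocysteine and serine. The set holds 48 genes of the 12393 with a single gene symbol on the array. Of these, 16 were listed by name, and 32 came from the families of glutathione peroxidases, peroxiredoxins, thioredoxins and glutathione transferases by the start of their symbol. They are represented by 79 probe sets, the groups of short probes that each read 1 transcript region. An implantation site is the swelling of the pregnant uterus formed by 1 embryo and the uterine wall that encloses it.

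Females were 4 months old, of C57Bl/6J X OLA129 background, and were sampled on day 8 of pregnancy, when the implantation sites were cut out of the uterus. The control group had 1 array, from control females. The Cbs null group had 1 array, from homozygous Cbs deficient females. The genotype of the conceptus is not given, nor is whether animals or sites were pooled. Because each genotype has 1 array, no replicate and no test stands behind any ratio below, which describes these 2 arrays only. The number of arrays limits the precision. The 2 probe sets of Cbs itself read 30.3 and 29.9 in control and 23.8 and 22.3 in Cbs null, all under the signal limit given below, and the deleted part of the gene is not stated, so they check nothing.

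Cells meet superoxide first with superoxide dismutases, which turn it into hydrogen peroxide. Catalase, glutathione peroxidases and peroxiredoxins then remove the peroxide. The peroxidases and peroxiredoxins do so with electrons from glutathione or thioredoxin that the reductases renew. Glutathione transferases join glutathione to reactive lipids and foreign compounds, and metallothioneins bind zinc and copper. Many of these genes are induced by the transcription factor NRF2 (Nfe2l2), which KEAP1 holds in check. Cbs belongs to the route by which homocysteine becomes cysteine, a building block of glutathione.

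A gene was counted as measured where the mean of its 2 signals reached 70.5, the median over all probe sets. That held for 46 of the 79 probe sets and 31 of the 48 genes, and 24 of these 31 lay in the brighter part of all measured genes. None of the 31 had an array under the limit, so none was counted through 1 genotype only. Where a gene has several probe sets, the one of highest mean signal gives its value. Ratios are log2 of Cbs null over control throughout.

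The measured members differed little between the arrays. None of the 31 was 1.5-fold apart in either direction, where 2.46% of all 7079 measured genes were higher by at least 1.5-fold and 1.33% were lower by that much. None was 2-fold apart either, against 0.622% of all genes higher and 0.283% lower. With shares that small, a count of 0 among 31 genes lies near the background. The median log2 ratio of the members was 0.06 (quartiles -0.02 and 0.16), and that of all genes was 0.02 (quartiles -0.11 and 0.16). A ratio above 0 was found in 20 members and one below 0 in 11, so 64.5% were above, against 55.0% of all genes. The members ran from -0.480 (Srxn1) to 0.585 (Gstt1), and the central 95% of all genes from -0.476 to 0.583. Srxn1 and Gstt1 thus lay just outside that range. Their median size of ratio, sign left aside, was 0.13, and that of all genes was 0.14.

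**Figure D1:**
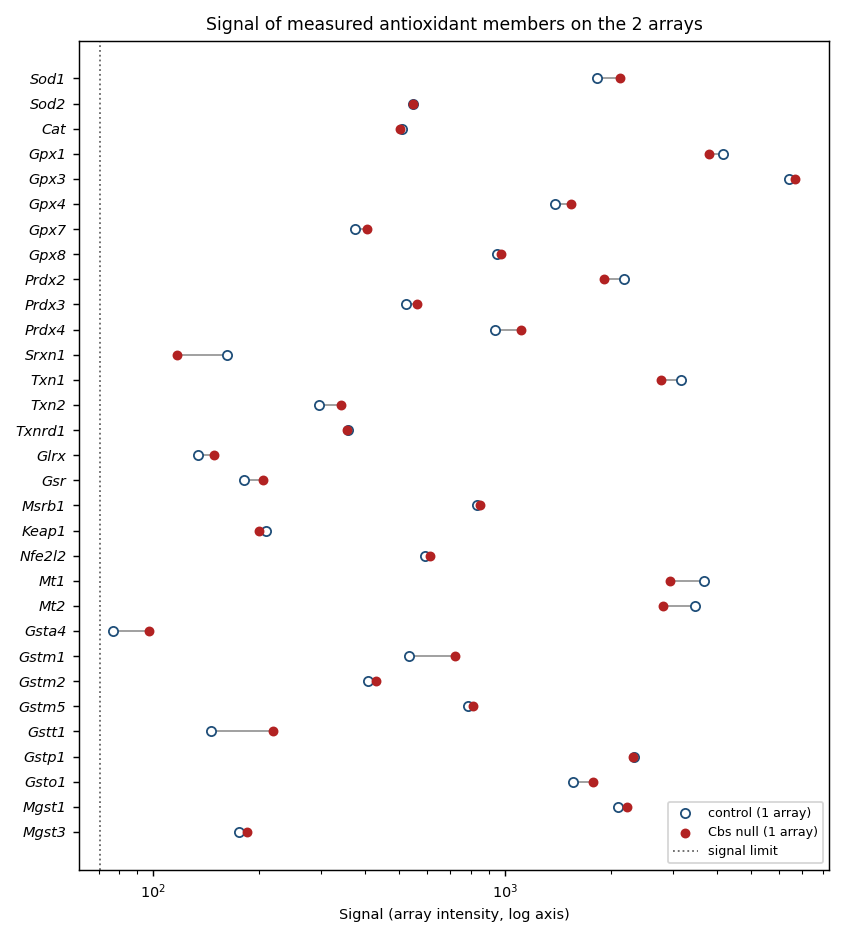
Signal of the 31 measured members on the control array (open circles) and the Cbs null array (filled circles), 1 array each, as array intensity on a log axis. The widest gaps are those of Gstt1, Gstm1 and Srxn1, and signals of different genes cannot be set against each other.

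The promoters of the metallothioneins are shown first, because Mt1 and Mt2 lie next to each other in the genome and were both lower. Sequences come from RefSeq (GRCm38.p6), cover the 250 bases before the annotated start and run 5′ to 3′. Capitals mark the cores of the metal response element, TGCACNC or TGCGCNC, the site of the zinc sensor MTF1, on either strand. Mt1 lies at chr8:94178839-94179088 and Mt2 at chr8:94172368-94172617, both on the plus strand.
Mt1: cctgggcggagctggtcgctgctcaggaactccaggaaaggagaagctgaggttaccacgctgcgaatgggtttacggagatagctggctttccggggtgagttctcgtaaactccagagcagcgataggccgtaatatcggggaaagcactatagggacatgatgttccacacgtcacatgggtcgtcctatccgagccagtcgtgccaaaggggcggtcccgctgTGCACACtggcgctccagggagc
Mt2: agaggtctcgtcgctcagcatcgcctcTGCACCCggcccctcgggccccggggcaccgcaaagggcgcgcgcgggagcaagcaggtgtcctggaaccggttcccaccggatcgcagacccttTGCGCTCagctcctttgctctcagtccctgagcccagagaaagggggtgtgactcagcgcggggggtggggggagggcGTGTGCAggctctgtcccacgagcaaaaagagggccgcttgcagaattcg

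TGCACNC was found in 10.4% and TGCGCNC in 12.5% of the 32851 promoters of the table in windows of the same length. In the windows before the annotated start, Mt1 held TGCACNC, and Mt2 held both motifs. Across or just past that start, Mt1 had further matches to both TGCACNC and TGCGCNC, and Mt2 had a further match to TGCGCNC. The absence of TGCGCNC from the Mt1 window thus depends on where the window ends. All of these are matches of letters and not measured sites.

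The antioxidant response element, where NRF2 binds, was searched by its core TGACNNNGC on both strands. It was found in 8 of the 43 member genes with a promoter in the table, counting any of a gene's promoters, and in 8 of their 56 promoters (14.3%), where 10.2% of all promoters hold it. The 6 measured members that held it are shown with up to 15 bases on each side and the core in capitals. Mgst1, Sod1 and Txnrd1 carry it on the opposite strand, so the capitals show its reverse complement. The windows are chr16:90220691-90220729 for Sod1, chr10:82859099-82859137 for Txnrd1, chr2:75704880-75704913 (minus strand) for Nfe2l2, chr8:94172524-94172562 for Mt2, chr3:107895797-107895835 for Gstm5 and chr6:138140456-138140494 for Mgst1, on the plus strand unless stated.
Sod1: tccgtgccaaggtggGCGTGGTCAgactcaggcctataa
Txnrd1: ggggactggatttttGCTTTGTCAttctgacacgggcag
Nfe2l2: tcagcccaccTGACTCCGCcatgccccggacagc
Mt2: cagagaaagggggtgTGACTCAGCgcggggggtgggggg
Gstm5: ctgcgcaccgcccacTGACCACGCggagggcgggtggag
Mgst1: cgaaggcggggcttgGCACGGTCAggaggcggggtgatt

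The 6 measured members with this core had a median log2 ratio of 0.05, from -0.30 (Mt2) to 0.21 (Sod1). The 23 measured members whose windows lacked it had a median of 0.06. The range of the first group lies inside that of the second, as a description of these letters only. Srxn1, at -0.48 the lowest of the second group, had a match to the core just past its annotated start. Its place in that group, and with it this comparison of ranges, thus depends on where the window ends.

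Among the enzymes that act on superoxide, Sod1, the copper and zinc dismutase of the cytosol, read 1829.1 in control and 2118.6 in Cbs null. Its log2 ratio was 0.21, and that of its dimmer probe set was 0.01. Sod2, the manganese dismutase of mitochondria, read 549.0 and 548.9. A further measured probe set of Sod2 had a log2 ratio of 0.10. Sod3, the extracellular dismutase, stayed under the signal limit, at 47.5 in control and 48.5 in Cbs null in its brighter probe set. None of the dismutases was thus as much as 1.2-fold apart in a measured probe set.

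Catalase, which breaks down hydrogen peroxide in peroxisomes, read 509.1 in control and 501.8 in Cbs null, a log2 ratio of -0.02. Its other measured probe set read 291.2 and 347.9, a ratio of 0.26. The sign for Cat therefore depended on the probe set.

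Of the 8 glutathione peroxidases 5 were measured, 4 with a ratio above 0 and 1 below, and their median was 0.06. Gpx3, the peroxidase secreted into extracellular fluid, read 6414.5 in control and 6692.8 in Cbs null. Gpx1, the cytosolic peroxidase, read 4170.0 and 3813.9, a log2 ratio of -0.13. Gpx4, which reduces lipid peroxides in membranes, read 1389.9 and 1544.2, with a ratio of 0.15 in this probe set and -0.04 in the other. Gpx7 and Gpx8, peroxidases of the endoplasmic reticulum, had ratios of 0.11 and 0.04. All 5 genes lay well inside the central range of all genes.

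The other glutathione peroxidases gave little signal. Gpx2, the epithelial form best known from the gut, read 48.3 in control and 78.0 in Cbs null. Its log2 ratio of 0.69, or 1.61-fold, is the highest among the members, but its mean signal lay under the limit. Gpx5, a peroxidase of the epididymis, read 18.3 and 12.6, and Gpx6 was under the floor of 14.3 on both arrays.

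Peroxiredoxins with a single symbol numbered 3, and all of them were measured. Prdx2, the cytosolic form abundant in red cells, read 2186.5 in control and 1915.3 in Cbs null, a log2 ratio of -0.19, and its dimmer probe set had 0.05. Prdx3, the mitochondrial form, read 524.1 and 560.4, a ratio of 0.10. Prdx4, the form of the endoplasmic reticulum, read 934.5 and 1111.3 in its brightest probe set, a ratio of 0.25. Its other probe sets went the other way, at -0.10 and -0.56, so no direction can be given for Prdx4. The embryonic and adult red cell markers on the same arrays, 5 of 9 measured, summed to 3055.8 in control and 5608.3 in Cbs null. Of these markers 2, Epb42 and Hba-a1, were under the floor on both arrays. Hbb-b2 was under the signal limit in control, at 67.1, and was counted as measured through its Cbs null value of 76.8. The part of red cells in the Prdx2 value was not tested.

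Srxn1, sulfiredoxin, which repairs overoxidised peroxiredoxins, had the lowest ratio of the members. It read 162.4 in control and 116.4 in Cbs null, a log2 ratio of -0.48. That probe set may match several transcripts. The other 3 probe sets of Srxn1 were under the signal limit and had ratios of 0.46, 0.59 and 0.05, all above 0. The lower value thus rests on 1 of 4 probe sets.

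In the thioredoxin system, the genes of the cytosolic and the mitochondrial protein had opposite signs in their brightest probe sets. Txn1, the cytosolic thioredoxin, read 3166.9 in control and 2770.9 in Cbs null, a log2 ratio of -0.19. A dim probe set of Txn1, at 28.4 and 31.8, had 0.16. Txn2, the mitochondrial thioredoxin, read 296.5 and 342.4, a ratio of 0.21. Its other measured probe sets had ratios of 0.19 and 0.07, the same sign in all 3. Txnrd1, the cytosolic thioredoxin reductase, read 357.9 and 354.6, and a dim probe set of it read 22.7 and 14.5. Txnrd2, its mitochondrial counterpart, was under the limit at 47.4 and 63.5.

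Glrx and Gsr serve the glutathione side of the same chemistry, and both had ratios above 0 in every measured probe set. Glrx, glutaredoxin, read 133.8 in control and 148.5 in Cbs null, a log2 ratio of 0.15, and its dimmer probe set had 0.56. That dimmer probe set read 58.0 in control, under the limit, and was counted as measured through its Cbs null value of 85.7. Gsr, glutathione reductase, which renews glutathione with NADPH, read 181.0 and 204.7, a ratio of 0.18, and 0.22 in the other probe set. Msrb1, a selenoprotein that reduces oxidised methionine, read 834.1 and 851.2.

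The regulators of the NRF2 response were level between the arrays. Nfe2l2 read 590.8 in control and 613.9 in Cbs null, a log2 ratio of 0.06. Keap1, the adaptor that sends NRF2 to degradation, read 208.6 and 199.4, a ratio of -0.07. A dim probe set of Keap1, at 37.7 and 44.9, had 0.25. Nqo1 and Hmox1, a quinone reductase and the inducible heme oxygenase, are classical NRF2 targets, and both stayed under the limit. Nqo1 read 52.0 and 58.5, and Hmox1 read 53.3 and 69.2.

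The metallothioneins were lower on the Cbs null array. Mt1 read 3685.2 in control and 2954.2 in Cbs null, a log2 ratio of -0.32, or 1.25-fold lower. Mt2 read 3466.4 and 2806.5, a ratio of -0.30, or 1.24-fold lower. Ratios as low or lower were found in 6.47% of all genes for Mt1 and in 7.02% for Mt2, so neither stands outside the central range. The Mt1 probe set may match several transcripts, and a dim probe set of Mt1, at 32.3 and 28.5, was also lower. Mt1 and Mt2 are close relatives, so how far their signals mix is uncertain. The other metallothioneins, no members of the set, are the brain form Mt3 and Mt4 of stratified epithelium. Mt4 read 502.6 and 348.4, a ratio of -0.53. Mt3, named after its value was seen, read 140.8 and 100.5, a ratio of -0.49. All of these 4 genes were lower, each in a single measured probe set. Mtf1, which encodes the zinc sensor MTF1 and was also named after its value was seen, read 97.7 and 121.6, a ratio of 0.32.

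**Figure D2:**
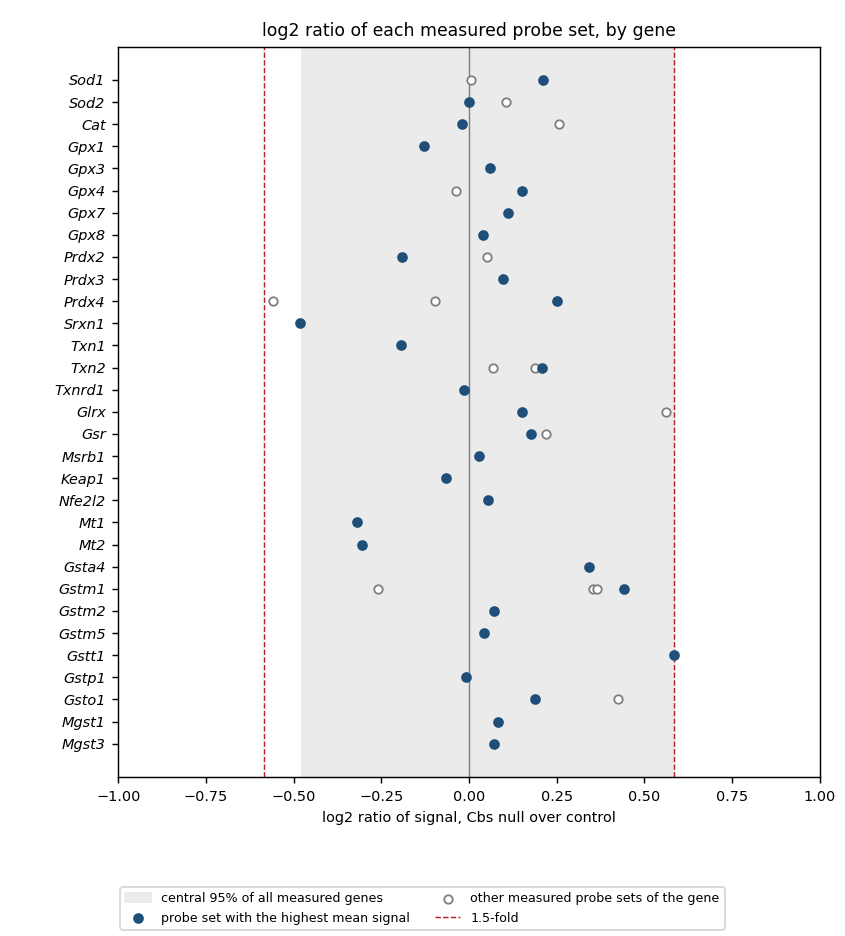
log2 ratio of Cbs null over control for each measured probe set of the 31 members, with filled circles for the probe set used as the gene's value and open circles for its other probe sets. The grey band is the central 95% of all 7079 measured genes, from -0.48 to 0.58, and no circle reaches either dashed line at 1.5-fold except that Gstt1 lies just short of it.

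The glutathione transferases of the set were slightly higher more often than lower. Of 19 genes 9 were measured, 8 with a ratio above 0 and 1 below, where 55.0% of all genes were above 0. The median was 0.08, against 0.02 for all genes. This grouping of the classes in the set was made after the values were seen. Glutathione transferases outside the set were counted with the other conjugation enzymes below. The summed signal of the 9 genes was 8115.1 in control and 8779.2 in Cbs null. None was 1.5-fold apart.

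Gstt1, a theta class enzyme, had the highest ratio of the measured members. It read 146.1 in control and 219.1 in Cbs null, a log2 ratio of 0.58, which is just under 1.5-fold. Ratios as high or higher were found in 2.49% of all genes, and Gstt1 has 1 probe set. Its neighbours in the genome did not share this value. Gstt3, which lies next to Gstt1, read 67.6 and 70.1, and Gstt2 read 71.5 and 66.8, both just under the signal limit.

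Gstm1, the mu class enzyme with the highest ratio, read 531.7 in control and 721.9 in Cbs null, a log2 ratio of 0.44, or 1.36-fold. Its next probe sets had ratios of 0.35 and 0.37. The dimmest of the 4, at 88.0 and 73.5, had -0.26. The 7 mu class members, Gstm1 to Gstm7, follow each other in the genome with no other protein-coding gene between them. Gstm2 read 408.5 and 429.4, and Gstm5 read 786.2 and 809.4, with ratios of 0.07 and 0.04. Gstm4, next to Gstm1, read 54.0 and 75.9, under the limit, and Gstm7 read 48.4 and 36.9. Gstm3 and Gstm6 gave signals of 15.6 or less. Genes of this cluster are near-identical in parts, and how far one adds to the signal of another is uncertain.

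In the other classes, Gsta4, an alpha class enzyme that takes up the lipid aldehyde 4-hydroxynonenal, read 76.9 in control and 97.5 in Cbs null. Its log2 ratio was 0.34, at a signal close to the limit. Gsto1, an omega class enzyme, read 1557.6 and 1774.4, a ratio of 0.19, and its other probe set had 0.42. Gstp1, the pi class enzyme, read 2331.4 and 2318.5. Mgst1, a transferase of microsomal and mitochondrial membranes, read 2101.1 and 2224.6, and Mgst3 read 175.6 and 184.4, with ratios of 0.08 and 0.07. Gsto1 was thus higher in both probe sets, and Gstp1 was level.

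Outside the mu and theta classes, the transferases under the signal limit read lower in Cbs null or lay under the floor. Mgst2 was 1.65-fold lower, with signals of 34.2 in control and 20.7 in Cbs null. Gsta3 read 23.0 and 11.4 in its brighter probe set, and Gstp3 read 20.9 and 4.9. Gsta2 was under the floor on both arrays. Signals this low carry little information on a ratio.

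**Figure D3:**
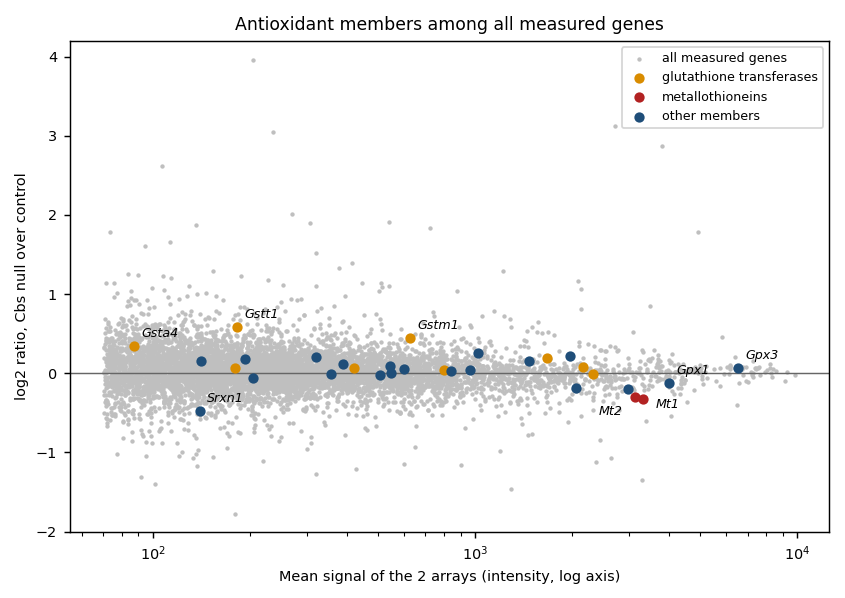
log2 ratio of Cbs null over control against the mean signal of the 2 arrays (log axis) for all 7079 measured genes in grey and the 31 members in colour. The members lie within the cloud of all genes, with Gstt1 and Gstm1 near its upper side and Srxn1, Mt1 and Mt2 near its lower side.

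Grouping by cell compartment or by selenium gave no larger ratios, in groups made after the values were seen. The 5 measured selenoproteins, Gpx1, Gpx3, Gpx4, Txnrd1 and Msrb1, had a median of 0.03, from -0.13 to 0.15. The 3 measured mitochondrial members, Sod2, Prdx3 and Txn2, had 0.10, from -0.00 to 0.21. The 4 members of the endoplasmic reticulum, Prdx4, Gpx7, Gpx8 and Mgst1, had 0.10, all above 0, although the probe sets of Prdx4 disagreed.

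The probe sets of a gene were the only repeated measure within these arrays. Of 11 members with several measured probe sets, the sign agreed between the brightest 2 in 6, while it did so in 62.0% of 2284 such genes overall. The median difference between them was 0.21 in the members and 0.16 in all genes. Most member ratios were smaller than that. Cat, Gpx4, Prdx2, Prdx4 and Sod2 had opposite signs in these 2 probe sets, whereas Glrx, Gsr, Gstm1, Gsto1, Sod1 and Txn2 had the same sign. The other 20 measured members rested on a single measured probe set.

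Other redox genes, from 9 lists around the same pathways, gave a similar picture. Of 102 such genes on the array 82 were measured, with 2 at least 1.5-fold higher and none lower. The 2 genes are 2.44% of the 82, near the 2.46% of all genes. The median was 0.09, with 53 above 0 and 29 below. Me1, the malic enzyme that makes NADPH, was 1.61-fold higher, with signals of 188.2 in control and 302.9 in Cbs null. Its other probe set was 2.46-fold higher, from 130.8 to 321.7. Cp, ceruloplasmin, the copper protein that oxidises iron, read 301.0 and 471.1, 1.57-fold higher. All 5 measured probe sets of Cp were above 0, from 0.12 to 0.78. Every measured probe set of both genes was thus higher, in a count of genes that does not stand apart from the background.

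Among the lists, the glutathione synthesis and turnover genes had a median of 0.13 over 7 genes, 5 above 0 and 2 below. Slc3a2, a chain of the cystine transporter, had 0.39, and Glo1, which detoxifies methylglyoxal with glutathione, had 0.38. Slc7a11, the other chain of that transporter, was under the floor on both arrays in its brightest probe set. The value of Slc3a2 alone thus says nothing on the transporter. Other conjugation enzymes had 0.19 over 13 genes, 12 of them above 0, with Akr1a1 at 0.03 and Aldh2 at 0.19. NADPH supply genes had 0.09 over 8, with the pentose phosphate enzymes Tkt at -0.03 and Pgd at -0.25. Heme and iron genes had 0.24 over 7, with Fth1, the ferritin heavy chain, at -0.12. The 3 lists of NRF2 partners, metal handling and selenoproteins had medians from 0.09 to 0.10. In them Atox1, a copper chaperone, had 0.12. Selenop, the selenium carrier of plasma, had 0.055, and Selenow, a small selenoprotein, had 0.12.

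Genes of superoxide and peroxide production had the lowest median, -0.18 over 8 genes, 6 of them below 0. Within it Cyba, a subunit of the phagocyte NADPH oxidase, had 0.07 and Romo1 -0.09. The list of other thiol and methionine sulfoxide enzymes had 0.02 over 13 genes, with Txnip, the inhibitor of thioredoxin, at 0.18 and Txnl1 at -0.02. In Sqstm1, an autophagy receptor that binds KEAP1, the ratio was 0.18, and in the repressor Bach1 -0.01. The lists other than those of Me1 and Cp held no gene 1.5-fold apart.

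**Figure D4:**
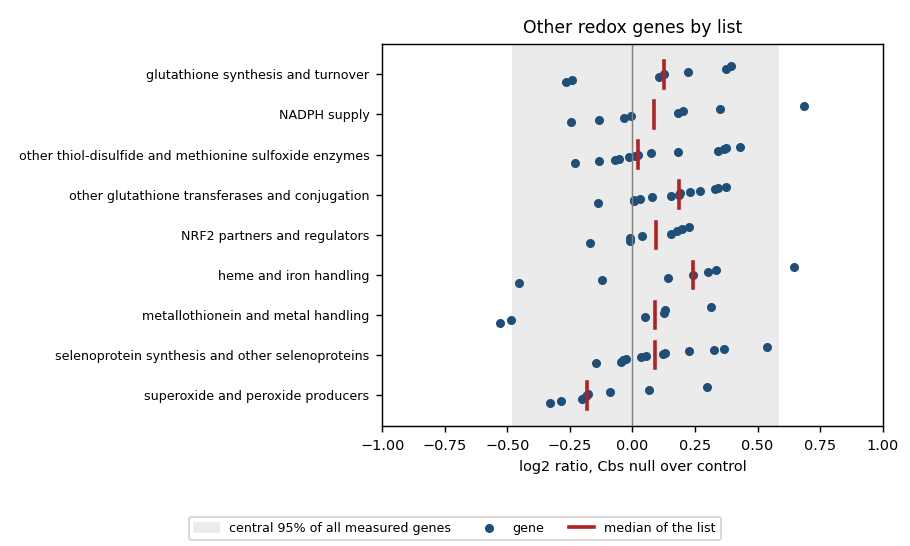
log2 ratio of Cbs null over control for the 82 measured genes of the 9 other redox lists, 1 circle per gene, with the median of each list as a vertical line. The grey band is the central 95% of all genes, and Me1 and Cp lie above it and Mt3 and Mt4 below.

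Markers of several cell types differed more between the arrays than the antioxidant members did. The labels name uterine implantation sites. Markers of decidua and uterine stroma, 12 of 15 measured, summed to 19040.7 in control and 18895.1 in Cbs null. Within these sums 2 of the 12 were lower by 1.5-fold or more, Bmp2 with a log2 ratio of -1.21 and Tdo2 with -0.84, while Prl8a2 had 0.52. Uterine epithelial markers, 14 of 16 measured, summed to 7139.4 and 24240.9. Prss28, Prss29 and Spink1 carried most of that gap, and the other 11 summed to 3444.1 and 5075.3. Among these 11, Calb1 was under the signal limit in control, at 47.3, and was counted as measured through its Cbs null value of 104.2. Macrophage markers, 13 of 14 measured, summed to 7484.4 and 10299.1. Fat cell markers, 6 of 8 measured with Lep under the floor, summed to 2863.4 and 4856.9. Of the 6, 5 had a ratio above 0 and 1 below, Plin4 with -0.50. Lipe, at 64.0 in control and 90.9 in Cbs null, was also counted through its Cbs null value. Trophoblast markers, 4 of 9 measured with Cdx2 and Elf5 under the floor, summed to 383.5 and 1048.7. Among them Ceacam11, Prl2b1 and Prl4a1 were under the signal limit in control, at 29.8, 64.4 and 61.2. They were counted as measured through their Cbs null values, so this gap is partly set by the filter. Yolk sac markers, 4 of 10 measured with Apoa4 and Apob under the floor, summed to 1084.6 and 1543.7. Of these, Afp and Ttr were under the signal limit in control. Both were counted as measured through their Cbs null values of 384.6 and 113.6. Rbp4 and Sox17 were level, with log2 ratios of 0.003 and 0.05. The yolk sac gap thus rests mainly on Afp and Ttr and is partly set by the filter. Endothelial markers, 8 of 8 measured, summed to 3338.7 and 2981.4. Uterine natural killer cell markers, 12 of 14 measured, summed to 19123.7 and 8807.2, with Il2rb, at 110.5 and 61.1, counted through control. The part of these cells in the ratios of Gstt1, Gstm1, Me1, Cp, Srxn1 and the metallothioneins was not tested, and fewer cells of a type and less RNA per cell cannot be told apart in whole tissue.

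Peroxiredoxin and alpha class transferase probe sets that carry several gene symbols were left out by rule. Of these 6 probe sets 5 reached the signal limit, with ratios from -0.28 to 0.01.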

How the data were processed

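The authors deposited array intensity on a linear scale, 1 value per probe set and array, and the submitters' processing notes name GCOS 1.4 as the software. Its algorithm, detection calls and the genome build are not stated in the sources at hand. With 2% of values trimmed at each end, the mean was 200.08 on both arrays, so no further scaling was applied. Of 22690 probe sets, 64 array controls were left out. Names came from the platform annotation, and only probe sets with 1 symbol were used. All 79 member probe sets kept their symbol in a RefSeq table (GRCm38.p6).

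Values under 14.3, the 25th percentile, were raised to it, a floor that bears on dim genes only. Members, lists and the 1.5-fold size were chosen with earlier results of these data known. Every member is accounted for. Other redox genes are named where they were past 1.5-fold or among the 2 brightest of their list, with Mt3, Mtf1 and Slc7a11 added after their values were seen. Promoters came from RefSeq, with 43 of 48 genes matched. Alternatives changed the scaling, floor, filter and choice of probe set. The calculation was tested on simulated data with planted changes larger than any member ratio. That test checked the calculation only and says nothing on ratios of the size seen here. Python 3.11.15 was used with pandas 2.3.3 and statsmodels 0.14.6.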

Additional observations from a re-analysis of the deposited data

How the results depend on the processing

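Of the 12 alternatives, the other floors and filters (6) cannot alter the ratio of a measured member. Under the other 6, where they gave a value, 27 of 31 members kept their sign, all but Cat, Gstp1, Prdx4 and Sod2. Counts of genes at least 1.5-fold apart moved with the signal filter and with the pseudocount. With the limit at the 25th percentile, 1 of 43 members was higher (Gpx2, 2.33%) and 2 were lower (Gsta3 and Mgst2, 4.65%), beside 496 (5.10%) and 357 (3.67%) of 9722 genes. With no filter 1 of 48 members was higher (2.08%) and 2 lower (4.17%), beside 504 (4.07%) and 365 (2.95%) of 12393 genes. These member shares lie near those of all genes. With the limit at the 75th percentile all genes gave 61 and 36, and with a pseudocount of 50 in place of the floor 85 and 49. The median of the members was 0.10 once probe sets with an ambiguous match were left out, which kept 22 members. That of the other redox genes was 0.13 under the same choice and 0.055 with the limit at the 75th percentile. Taking the median over probe sets gave -0.070 for the peroxiredoxins, where the probe sets of Prdx4 disagree. Leaving out ambiguous probe sets gave -0.19 for the thioredoxins, which left Txn1 alone. Values were said to move where they shifted by more than the disagreement between probe sets of a gene (SD 0.21 for 1 probe set), scaled to the number of genes. No paired analysis was possible because each genotype has 1 array. The depth of these arrays is signal over background, which limits the 17 members under the filter.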
